A study of Mus musculus with 12 samples.

Results

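The urea cycle genes described here are 8 mouse genes: Nags, Cps1, Otc, Ass1, Asl and Arg1, which encode its enzymes, and Slc25a15 and Slc25a13, which encode its mitochondrial carriers. They were taken by gene symbol and not by a cut on their values, though earlier results of these data were known. All 8 had a row in both deposited tables, which together held 17186 distinct gene names. Livers of C57BL/6 mice on chow and of C57BL/6 mice on a diet that induces nonalcoholic steatohepatitis (NASH) were profiled by RNA-seq, as were liver sinusoidal endothelial cells (LSEC) from mice on the same diets. Each of the 4 groups (liver chow, liver NASH, LSEC chow, LSEC NASH) had 3 libraries. A feeding time of 36 weeks stands in a protocol that the labels repeat for every sample, also for chow, and they name no genetic alteration in any group. Per the labels, LSEC came from non-parenchymal cells depleted of CD11b-positive cells, and beads against CD146 captured them, so hepatocytes were not the target of the sort.

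The urea cycle turns ammonia, the toxic by-product of amino acid breakdown, into urea, and it runs in full in hepatocytes, most of all in those near the portal vein. In the mitochondrion, NAGS makes the activator of CPS1, CPS1 joins ammonia and bicarbonate into carbamoyl phosphate, and OTC adds this to ornithine to give citrulline. In the cytosol, ASS1 joins citrulline and aspartate, ASL splits the product into arginine and fumarate, and ARG1 splits arginine into urea and ornithine. SLC25A15 exchanges ornithine and citrulline across the inner mitochondrial membrane, and SLC25A13 (citrin) brings aspartate out to the cytosol.

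Liver libraries held 47000197 to 57397720 recovered reads, and LSEC libraries 18527017 to 19402863. Values are normalized reads, which are read counts divided by 1 factor per library, and the 2 tissues were normalized separately. Replicate numbers of LSEC libraries are positions in the table and serve as names only. The labels do not say whether replicates are separate animals, so p-values measure the spread between these libraries, which may be technical. In liver, 16 markers of hepatocytes had a summed level of 8151790 to 8878950 in chow and 4717300 to 5405310 in NASH. Of these 16 markers 9 fell, while 10 of 13 macrophage, 5 of 7 stellate cell, all 7 cholangiocyte and all 5 T and NK cell markers rose. None of these markers was at 0 in any library, and 1 macrophage marker and 9 of 14 endothelial markers fell, with 1 endothelial marker higher. Over all liver genes 21% fell and 25% rose (limma, adjusted p under 0.05). When libraries were scaled by total reads, 6 hepatocyte markers fell and 1 rose, and 5 endothelial markers fell and 3 rose. All 7 stellate cell markers then rose and the other lists kept their counts, against 5.41% of all genes lower and 47.2% higher. Among chow LSEC, library 2 stood apart in summed hepatocyte markers, with 107289 normalized reads against 19242 and 10309.

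All 8 urea cycle genes were lower in NASH liver, and no NASH library reached any chow library for any of them. Together they took 1.05% ± 0.220 of all reads in chow liver and 0.353% ± 0.0903 in NASH liver (SD, n = 3). All 8 passed the test in the lower direction (limma, Benjamini-Hochberg adjusted p under 0.05), a direction in which 21% of the 16703 liver genes passed (25% passed as higher). All 8 also fell with edgeR (20.4% of all genes) and with DESeq2 (20.8%). NASH libraries lay wholly below chow libraries for 27.3% of all liver genes. The median log2 fold change was -1.59 over the 8 genes and 0.02 over all genes. In bulk liver, fewer hepatocytes and less RNA per hepatocyte cannot be told apart, and the part of the shift in cell markers in these results was not tested. When libraries were scaled by total reads, which moved the median of all liver genes to 0.43, 7 of the 8 genes fell, against 5.41% of all genes, and Otc did not pass.

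**Figure D1:**
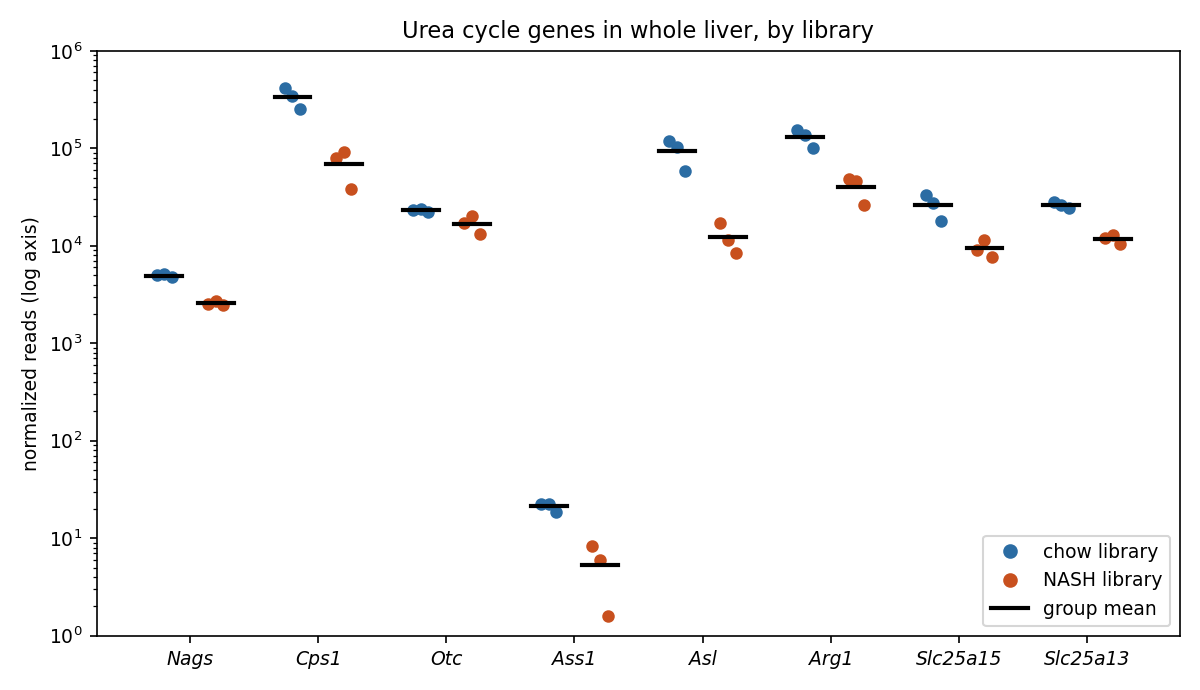
Normalized reads (log axis) of the 8 urea cycle genes in each whole-liver library, chow in blue and NASH in orange, with a bar at the group mean. For each gene the 3 NASH points lie below the 3 chow points, with the narrowest separation for Otc, and Ass1 lies below 25 normalized reads throughout.

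Within each diet the third liver library was the lowest of its group for all 8 genes. Chow library 3 and NASH library 3 also had the highest summed macrophage markers of their groups (68286 and 146590.0 normalized reads), and the part of this in the members' levels was not tested. Asl varied the most among the abundant members, 14.1-fold between its highest and lowest library, and Otc the least, 1.79-fold.

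Nags (N-acetylglutamate synthase, ENSMUSG00000048217, chromosome 11 at 102145513 to 102149477, plus strand, mm10) had 4980, 5072 and 4795 normalized reads in chow liver and 2554, 2691 and 2461 in NASH liver. Both groups were tight and well apart. The log2 fold change was -0.95 ± 0.08 (SE; Benjamini-Hochberg adjusted p from limma = 2.38e-05), a 1.93-fold lower level. Of the Nags exon bases, 15.61% also belong to Gm11586, a gene on the opposite strand that has no row in either table, and the liver kit does not mark strand, so reads of the shared stretch cannot be assigned to 1 of them.

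The bases upstream of Nags and Otc are shown because these 2 genes of the mitochondrial steps had the smallest declines of the 8. Capitals mark matches to the C/EBP motif TTNNGNAA and to the GC box GGGCGG, on either strand. The sequences are from RefSeq (GRCm38.p6), 5′ to 3′ on the gene's strand, at chr11:102145263-102145512 (plus) and chrX:10252055-10252229 (plus), and the Otc run stops before the first base of a predicted transcript.
Nags: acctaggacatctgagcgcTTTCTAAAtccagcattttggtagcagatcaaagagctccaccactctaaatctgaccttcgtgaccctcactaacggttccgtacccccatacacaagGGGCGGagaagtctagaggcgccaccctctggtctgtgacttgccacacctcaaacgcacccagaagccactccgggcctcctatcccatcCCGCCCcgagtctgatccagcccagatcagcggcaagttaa
Otc: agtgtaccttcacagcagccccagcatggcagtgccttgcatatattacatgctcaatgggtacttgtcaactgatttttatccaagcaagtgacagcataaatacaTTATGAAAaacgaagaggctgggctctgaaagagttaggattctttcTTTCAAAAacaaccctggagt

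The RefSeq promoter table matched 5 of the 8 genes, Nags, Otc, Ass1, Slc25a13 and Slc25a15, and not Cps1, Asl or Arg1. In the 250 bases before the start, TTNNGNAA, a C/EBP motif, occurred 231 bases upstream in Nags and 143 and 96 bases upstream in Otc, and 36.8% of 32851 promoters held it. The GC box occurred in Nags, Ass1 and Slc25a15 and in 32.7% of promoters, and CCAAT occurred in Slc25a13 and in 33.8%. The cyclic AMP response element TGACGTCA (in 1.55% of promoters) and the HNF4 motif CAAAGTCCA (in 0.384%) had no match in these windows, and TGACG, which is contained in the former, matched 13 bases upstream in Slc25a13 and in 17.8% of promoters. Each search read both strands, and a match describes letters only.

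Cps1 (carbamoyl-phosphate synthetase, ENSMUSG00000025991, chromosome 1 at 67123026 to 67231259, plus strand), the first committed enzyme, had 411030, 341645 and 253060 normalized reads in chow liver and 78499, 90725 and 38318 in NASH liver. The lowest chow library stood far above the highest NASH library. The log2 fold change was -2.34 ± 0.31 (SE; limma, adjusted p = 0.000299), 5.07-fold lower.

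Otc (ornithine transcarbamylase, ENSMUSG00000031173, chromosome X at 10252305 to 10321024, plus strand) had 23401, 23760 and 22118 normalized reads in chow liver and 17209, 20049 and 13243 in NASH liver. NASH library 2 came within reach of the chow libraries without overlapping them. The log2 fold change was -0.48 ± 0.14 (SE; limma, adjusted p = 0.0202), the smallest decline of the 8. The call ended with scaling by total reads (log2 fold change -0.06, adjusted p = 0.672) and with scaling by the hepatocyte markers, an alternative added after seeing the data (-0.02, adjusted p = 0.932). It also ended without chow library 1 (adjusted p = 0.0577), chow library 2 (0.0722) or NASH library 1 (0.0548).

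Ass1 (argininosuccinate synthase, ENSMUSG00000076441, chromosome 2 at 31470207 to 31520672, plus strand) was counted at very few reads: 22.5, 22.7 and 18.5 normalized reads in chow liver and 8.26, 6.03 and 1.61 in NASH liver. These stood for 58 recovered reads over the chow libraries and 17 over the NASH libraries. The groups did not overlap, and the log2 fold change was -1.998 ± 0.504 (SE; limma, adjusted p = 0.00967). Ass1 has a near-identical copy, the processed pseudogene Gm5424 (chromosome 10 at 62071123 to 62072362). The 2 sequences were aligned over 1240 bases with 6 mismatches and no gap, an identity of 99.52%, and the aligned stretch covers the whole Ass1 coding sequence (bases 203 to 1438 of a transcript of 1696). Of the 1647 windows of 50 bases in the Ass1 transcript, 911 (55.3%) occur letter for letter in Gm5424. Gm5424 has no row in either table, and the sources used here do not say how reads matching both places were treated. The Ass1 values are therefore uncertain, and the part of the copy in the low counts was not tested. A stretch of 60 bases with 2 of the mismatches in capitals (bases 572 to 631 of the Ass1 transcript, GENCODE M21) shows how alike the copies are.
Ass1: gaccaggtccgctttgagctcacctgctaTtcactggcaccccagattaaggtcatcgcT
Gm5424: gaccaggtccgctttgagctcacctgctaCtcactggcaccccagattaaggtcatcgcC

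Asl (argininosuccinate lyase, ENSMUSG00000025533, chromosome 5 at 130011258 to 130029247, minus strand) had the deepest decline, from 117725, 104002 and 58924 normalized reads in chow liver to 16944, 11413 and 8364 in NASH liver. Chow library 3 was well below the other chow libraries and still above every NASH library. The level was 7.64-fold lower in NASH, a log2 fold change of -2.93 ± 0.29 (SE; limma, adjusted p = 5.7e-05). Of all liver genes, 0.359% had a lower log2 fold change than Asl and 0.635% a lower one than Cps1.

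Arg1 (arginase 1, ENSMUSG00000019987, chromosome 10 at 24915221 to 24927484, minus strand), which releases urea, had 152467, 135803 and 99409 normalized reads in chow liver and 47786, 46077 and 26099 in NASH liver. The groups stood apart, and the log2 fold change was -1.72 ± 0.24 (SE; limma, adjusted p = 0.000418), 3.30-fold lower.

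Both mitochondrial carriers fell. Slc25a15 (ENSMUSG00000031482, chromosome 8 at 22375551 to 22398597, minus strand), the ornithine carrier, had 33361, 27372 and 18001 normalized reads in chow liver and 9092, 11380 and 7680 in NASH liver, a log2 fold change of -1.46 ± 0.21 (SE; limma, adjusted p = 0.000523). Slc25a13 (ENSMUSG00000015112, chromosome 6 at 6041218 to 6217173, minus strand), citrin, had 27763, 26211 and 24546 in chow liver and 11968, 12774 and 10309 in NASH liver, a log2 fold change of -1.17 ± 0.11 (SE; adjusted p = 3.62e-05). Chow libraries spread more for the ornithine carrier than for citrin, and neither gene's groups overlapped. In the authors' deposited table all 8 genes also had negative log2 fold changes in liver, with adjusted p from 5.62e-22 (Slc25a13) to 0.0107 (Ass1).

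Levels of different genes were compared per kilobase of exon, counting each base of every annotated exon of a gene once. The longest coding transcript is shorter for some members (2413 against 4831 bases for Asl, 1477 against 2228 for Arg1) and not for Cps1 (5555). The order and the overlaps given here hold for this exon length only and can change with transcript length. In chow liver the highest means were 60350 normalized reads per kilobase for Cps1 and 58001 for Arg1, and the libraries of these 2 overlapped. Asl followed at 19364, Slc25a13 at 6891, Otc at 5445, Slc25a15 at 4662, Nags at 1744 and Ass1 at 8.79 normalized reads per kilobase. Among the further neighbours in that order, Otc and Slc25a15 overlapped and the others did not. In NASH liver Arg1 stood at 17948 and Cps1 at 12454, again overlapping. Otc moved up to the third place at 3969 and Asl down to the fifth at 2534. From Otc through Slc25a13 and Asl to Slc25a15, each gene overlapped the next in the order, and Nags and Ass1 again lay apart at the end. The Ass1 values are uncertain because of its near-identical copy Gm5424, so its last place in both diets is not read as its level.

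Read ratios of 2 members within a library do not depend on the scaling of that library. Of such ratios, 9 were compared: neighbours in the order of liver fold changes, and 2 more, Cps1 to Otc and Asl to Otc. The gene with the deeper decline was always the numerator. This choice used the same data and fixed the negative sign of each difference in advance, so the values are descriptions only. Of the 9 ratios, 5 had chow and NASH liver libraries wholly apart. The ratios were compared by exact two-sided permutation tests, which with 3 libraries against 3 cannot give p below 0.1. Cps1 to Otc, consecutive enzymes, was 17.6, 14.4 and 11.4 reads per read in chow liver and 4.56, 4.53 and 2.89 in NASH liver, a log2 difference of -1.87 (exact p = 0.1). Asl to Otc differed by -2.46 on the log2 scale and Nags to Otc by -0.47, both with groups that did not overlap (exact p = 0.1). Asl to Cps1 differed by -0.59 and Slc25a13 to Nags by -0.22, also without overlap (exact p = 0.1). Cps1 to Ass1, Ass1 to Arg1, Arg1 to Slc25a15 and Slc25a15 to Slc25a13 overlapped between diets, with exact p from 0.3 to 0.9. Adjusted over the 9 ratios, the lowest exact p was 0.18, so none passed.

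The 8 genes were next set against the 16 hepatocyte markers of the same library, which include albumin, apolipoproteins and fibrinogen chains. In liver they summed to 94.5, 74.8 and 58.7 reads per 1000 marker reads on chow and 34.1, 38.6 and 22.6 on NASH diet. All chow values lay above all NASH values, with a log2 difference of -1.27 in the summed ratio, given as a description. Asl went from 11.1 ± 3.66 to 2.39 ± 0.690 per 1000 marker reads (SD, n = 3; log2 difference -2.20), and Cps1 from 39.9 ± 9.85 to 13.5 ± 4.98 (-1.61). Nags, Arg1 and Slc25a13 also had lower ratios without overlap, at -0.21, -0.99 and -0.43 on the log2 scale (exact p = 0.1 each). Slc25a15 overlapped between diets (-0.72, exact p = 0.2). Otc, at 2.75 ± 0.107 on chow and 3.32 ± 0.589 in NASH, had a log2 difference of 0.26 (exact p = 0.2), a mean that was higher and not lower relative to these markers. None of these exact tests could go below 0.1. Adjusted over the single members, the exact p was 0.14 for Nags, Cps1, Asl, Arg1 and Slc25a13 and 0.2 for Otc and Slc25a15, so none passed. The share of all liver genes whose ratio to these markers lies wholly apart between diets was not counted. When every gene was scaled by the hepatocyte markers, 7 of the 8 genes fell in the limma test, Otc being the exception, against 3.56% of all liver genes.

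**Figure D2:**
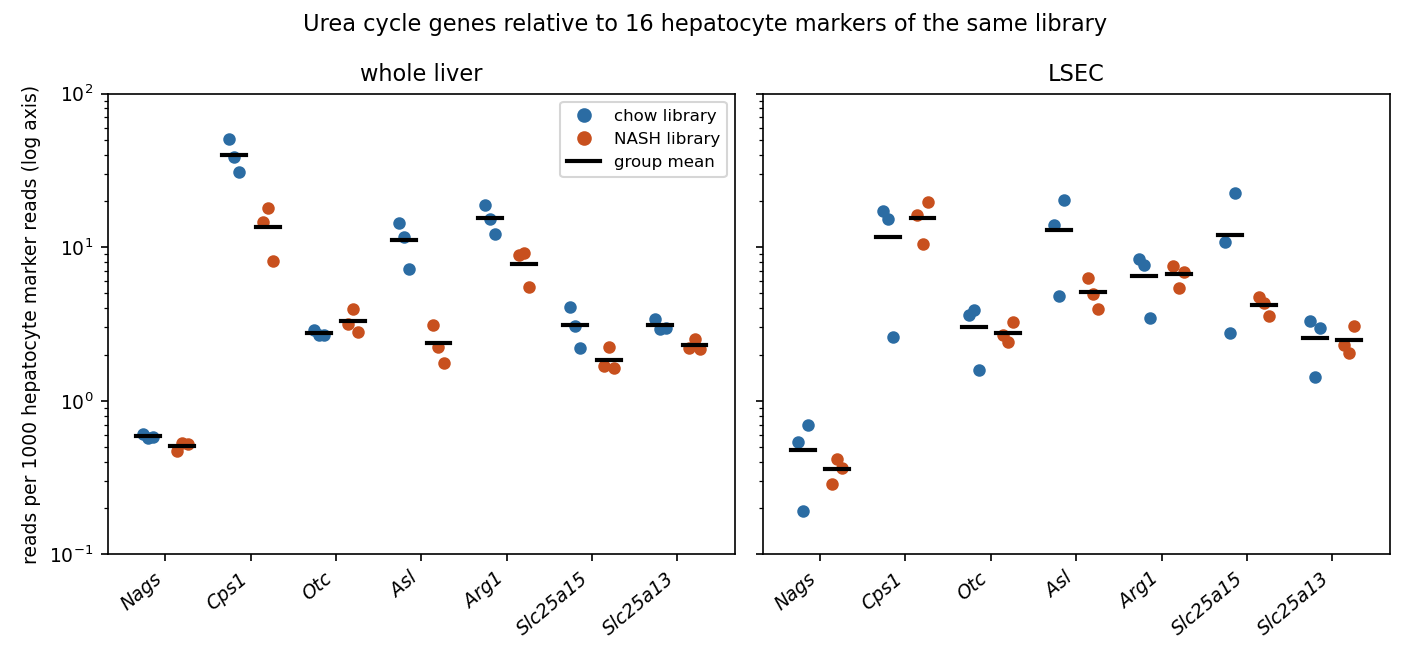
Reads of 7 urea cycle genes per 1000 reads of the 16 hepatocyte markers in the same library (log axis), whole liver at left and LSEC at right, chow in blue, NASH in orange, bars at group means; Ass1 is left out for its few reads. In liver Cps1 and Asl show wide gaps between diets and Otc and Slc25a15 overlap, while in LSEC the diets overlap for each gene.

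In LSEC all 8 genes were at low levels, with Ass1 at 0 in chow libraries 1 and 3. None of the 8 passed the test for a NASH effect, against 8.11% of the 16273 LSEC genes. With edgeR (7.16% of all genes called) and DESeq2 (16.3%, with no adjusted p for Ass1) none passed either, and none had an unadjusted limma p under 0.05, the lowest being 0.0558 for Slc25a13. Together the 8 genes took 0.00924% ± 0.00876 of reads in chow LSEC and 0.0161% ± 0.00743 in NASH LSEC (SD, n = 3). As a check of the label, endothelial markers summed to 807331 to 837942 normalized reads in chow LSEC and 460224 to 501199 in NASH LSEC, with none of the 14 at 0 (5 fell and 1 rose).

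Cps1 had 331, 1645 and 26.6 normalized reads in chow LSEC and 872, 728 and 2145 in NASH LSEC, an 80.6-fold range over the 6 libraries. Arg1 had 161, 826 and 35.8 on chow and 410, 374 and 755 in NASH, and Otc had 70.0, 419 and 16.4 on chow and 144, 166 and 354 in NASH. For these 3 genes chow library 2 was high, chow library 3 low, and the diets overlapped. The log2 fold changes were 2.17 (95% interval -0.95 to 5.28), 1.52 (-0.83 to 3.87) and 1.35 (-1.10 to 3.81), with limma adjusted p of 0.348, 0.38 and 0.459. On the recovered reads the same log2 fold changes were smaller, 0.91, 0.60 and 0.40 with edgeR and 0.90, 0.59 and 0.39 with DESeq2.

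Asl and Slc25a15 were steadier in LSEC. Asl had 267, 516 and 209 normalized reads on chow and 340, 344 and 430 in NASH (log2 fold change 0.27, 95% interval -0.50 to 1.04, limma adjusted p = 0.652). Slc25a15 had 207, 295 and 232 on chow and 254, 298 and 387 in NASH (0.35, 95% interval -0.17 to 0.87, limma adjusted p = 0.367). These 2 genes varied 2.47-fold and 1.87-fold over all 6 LSEC libraries, the lowest ranges of the members there.

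Slc25a13 had 63.7, 153 and 30.7 normalized reads in chow LSEC and 125, 141 and 335 in NASH LSEC (log2 fold change 1.41, limma adjusted p = 0.205). Nags had 10.4, 20.7 and 7.17 on chow and 15.5, 28.9 and 39.97 in NASH (1.11, limma adjusted p = 0.232). Ass1 was listed at 0, 2.18 and 0 on chow and 0.966, 0.933 and 2.79 in NASH, 2 recovered reads against 5, too few for a fold change. In the authors' deposited table none of the members had an adjusted p under 0.05 in LSEC, with 0.143 to 0.882 for 7 of them and no adjusted p for Ass1. The authors' deposited table gave Slc25a13 an unadjusted p of 0.0361.

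Every one of the 8 genes was highest in chow library 2 among chow LSEC and in NASH library 3 among NASH LSEC. The summed hepatocyte markers were highest in the same libraries, with 53950, 69229 and 108928 normalized reads in the NASH libraries and library 2 apart in chow, and none of the 16 was at 0. The part of hepatocyte RNA in the members' LSEC values was not tested. The fold changes moved with these libraries. Without chow library 2 the log2 fold changes were 3.53 for Cps1, 2.54 for Otc and 2.66 for Arg1, and without chow library 3 they were 0.59, 0.25 and 0.42. None of the 8 passed with any 1 library left out (lowest limma adjusted p = 0.0567, for Arg1 without chow library 2).

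**Figure D3:**
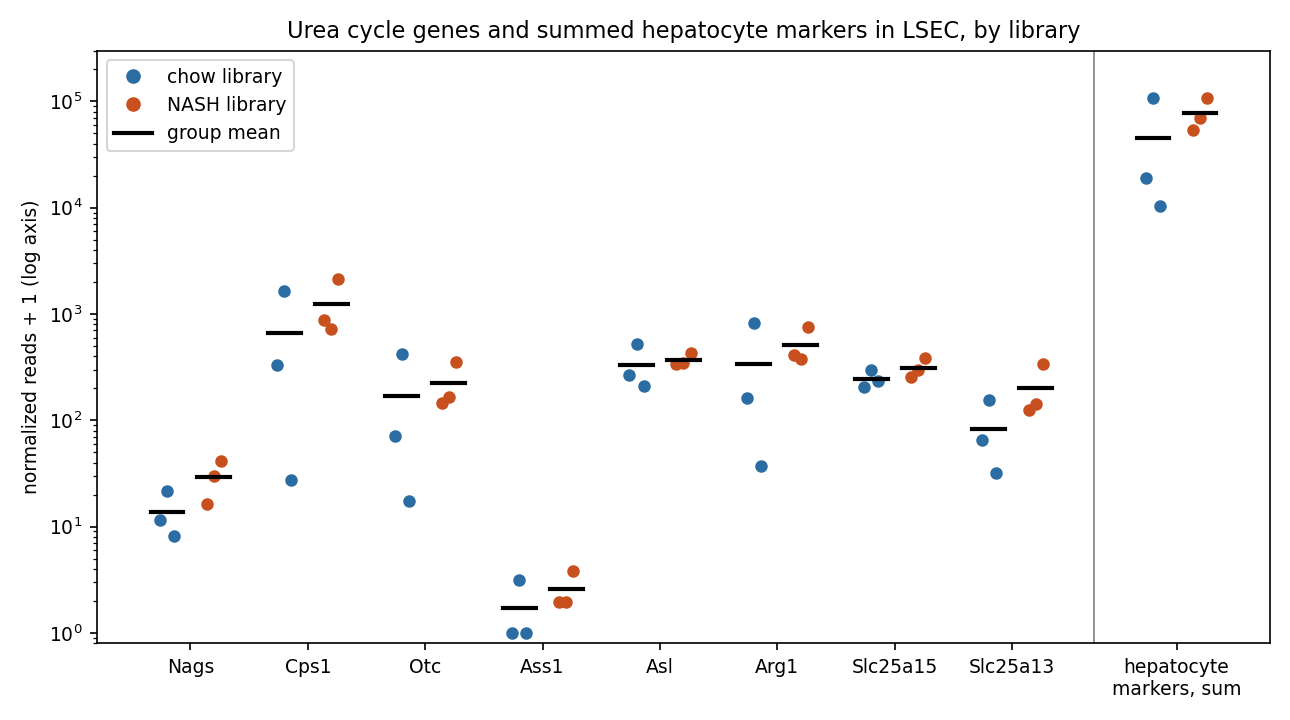
Normalized reads plus 1 (log axis) of the 8 urea cycle genes in each LSEC library, and at right the summed 16 hepatocyte markers, chow in blue, NASH in orange, bars at group means. The middle chow point and the right-hand NASH point, which are chow library 2 and NASH library 3, are the highest for each gene and for the marker sum.

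Per 1000 hepatocyte marker reads the 8 genes summed to 57.7, 36.1 and 54.1 in chow LSEC and 40.1, 30.1 and 40.8 in NASH LSEC, overlapping between diets (log2 difference -0.40). In chow, this ratio was higher in liver than in LSEC by 3.41-fold for Cps1 and 2.36-fold for Arg1, with no overlap of libraries. In NASH, it was higher in LSEC than in liver by 2.13-fold for Asl and 2.26-fold for Slc25a15, again with no overlap, while Nags was 1.42-fold higher in liver, also with no overlap. These ratios are within a library, so the separate normalization of the tissues does not enter them, and no test was made of them.

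The difference between the NASH effects of the tissues was tested for each of the 15784 genes in both tables, as the difference of log2 fold changes over its standard error. For 5 of the 8 genes, Ass1 with a value that cannot be relied on, the effect was lower in liver than in LSEC (Benjamini-Hochberg adjusted p under 0.05), against 8% of all genes in that direction. Asl differed by -3.20 on the log2 scale (95% interval -4.13 to -2.28, adjusted p = 0.00018) and Slc25a15 by -1.80 (-2.46 to -1.15, adjusted p = 0.00094), from limma effects. Slc25a13 differed by -2.58 (adjusted p = 0.0268) and Nags by -2.05 (0.0325). Ass1 passed at -2.73 (adjusted p = 0.0335), but this rests on 7 LSEC reads in all, and its fitted LSEC log2 fold change ran from 0.11 to 2.38 with pseudocounts of 10 and 0.1, so no difference is read from it and 4 genes remain. Cps1 (-4.51, 95% interval -7.65 to -1.37, adjusted p = 0.053), Arg1 (-3.24, -5.61 to -0.87, 0.0613) and Otc (-1.83, -4.29 to 0.63, 0.27) did not pass. With edgeR's interaction term 4 passed, against 6.25% of all genes, and Ass1 did not (adjusted p = 0.147). The count depended on LSEC libraries, with 8 called without chow library 2, 3 without NASH library 1, and 2 without chow library 1, chow library 3, NASH library 2 or NASH library 3, and Asl and Slc25a15 were called each time. The difference was not tested with scaling by hepatocyte markers.

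**Figure D4:**
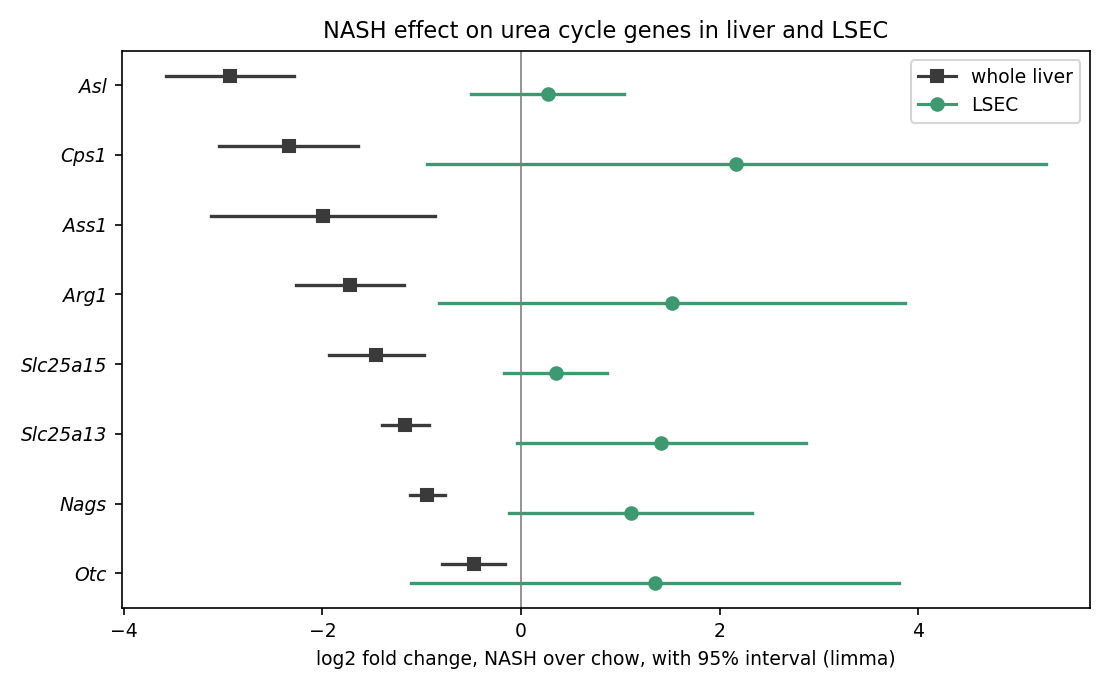
Log2 fold change of NASH over chow for each urea cycle gene with its 95% interval from limma, whole liver as dark squares and LSEC as green circles; the LSEC value of Ass1 is left out for its few reads. Liver values all lie below 0 with intervals that exclude 0, and LSEC values lie above 0 with intervals that include it.

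Of the 5 paralogs of the members, 1 fell and none rose in liver, where 21% of all genes fell and 25% rose. The share that fell thus lay near that of all genes. Slc25a29, a mitochondrial carrier of basic amino acids, fell from 243, 219 and 180 normalized reads to 163, 117 and 96.5 (log2 fold change -0.79, limma adjusted p = 0.0162), and that call ended with scaling by total reads and without chow library 1, chow library 2 or NASH library 3 (highest limma adjusted p = 0.0638). Slc25a12, the other aspartate-glutamate carrier, had 1852, 1721 and 1221 on chow and 1257, 1200.4 and 1190.4 in NASH (-0.37, limma adjusted p = 0.0591). This gene passed as lower with edgeR (adjusted p = 0.0495) and with DESeq2 (adjusted p = 0.0335), although its groups overlapped. Arg2, the mitochondrial arginase, had 45.1, 22.7 and 29.7 on chow and 53.2, 38.2 and 42.6 in NASH (0.49, limma adjusted p = 0.234). Cad, whose protein makes carbamoyl phosphate for pyrimidines, had a log2 fold change of 0.35 (limma adjusted p = 0.0514), and the ornithine carrier gene Slc25a2 had at most 10.3 normalized reads (-0.90, limma adjusted p = 0.15). With scaling by total reads Arg2 and Cad passed as higher, as did 47.2% of all liver genes.

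Counts over lists of related liver genes stand beside 21% of all genes lower and 25% higher, and, with scaling by total reads, 5.41% lower and 47.2% higher with a median of 0.43. Among 21 genes of ammonia, glutamine and glutamate metabolism, 13 fell and 3 rose in liver, with a median log2 fold change of -0.57 (8 and 5, and -0.16, with scaling by total reads). Of these, Got1, Got2, Gls2, Oat, Slc1a2, Glul and Rhbg also stand in the shuttle, periportal or pericentral lists below, so the list counts are not separate observations. Slc25a22, a mitochondrial glutamate carrier, fell from 30987, 23165 and 17890 to 5946, 7440 and 6037 normalized reads (-1.86, limma adjusted p = 5.08e-05), and the glutamate transporter gene Slc1a2 fell by 1.29 on the log2 scale. Aldh18a1, which encodes the enzyme that starts proline and ornithine synthesis from glutamate, rose from 75.9, 68.0 and 107 to 315, 325 and 419 (2.08, limma adjusted p = 6.7e-05). Some further genes are named after their values were seen. Oat, the ornithine aminotransferase gene, had a log2 fold change of -2.41, and Gls2, the liver glutaminase gene, -1.95. Glul, the glutamine synthetase gene of the hepatocytes around the central vein, did not pass, with 100897, 85386 and 80273 normalized reads on chow and 79852, 85826 and 77932 in NASH (-0.12, limma adjusted p = 0.486). With scaling by total reads Glul passed as higher (0.29, limma adjusted p = 0.039), as did 47.2% of all liver genes.

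Fumarate released by ASL is returned to aspartate through fumarase, malate dehydrogenase and aspartate aminotransferase. Of 7 genes of this route and the malate-aspartate shuttle 6 fell and none rose in liver, with a median of -0.37 (2 fell and 1 rose, median 0.04, with scaling by total reads). Got1, the cytosolic aspartate aminotransferase gene, went from 74650, 56927 and 20642 to 6439, 7426 and 3087 normalized reads (-3.07, limma adjusted p = 0.0005). Its chow libraries spread widely and none reached down to NASH. Fh1, the fumarase gene, fell by 1.66 and Mdh1, a malate dehydrogenase gene, by 0.55 on the log2 scale, the latter not called with scaling by total reads.

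Of 16 measured genes for arginine uptake, nitric oxide, creatine and polyamines, 8 rose and 4 fell in liver, with a median of 0.41 (8 and 1, and 0.83, with scaling by total reads). The share that fell lay near the 21% of all genes, and with scaling by total reads the share that rose lay near the 47.2%. Slc7a1, a cationic amino acid transporter gene, rose from 79.5, 56.1 and 73.8 to 185, 186 and 234 normalized reads (1.52, limma adjusted p = 0.00034). Sat1, for a polyamine acetyltransferase, rose by 1.10 and Gamt, for the last step of creatine synthesis, by 0.66. Slc7a2, the transporter gene of the same family that was abundant in chow liver, had 74511, 64328 and 54031 on chow and 22426, 30549 and 14544 in NASH (-1.57, limma adjusted p = 0.000611). Nos2, the inducible nitric oxide synthase gene, had at most 7.55 normalized reads on chow and at least 28.2 in NASH (2.75, limma adjusted p = 0.000972). Slc7a2 and Nos2 were named after their values were seen.

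**Figure D5:**
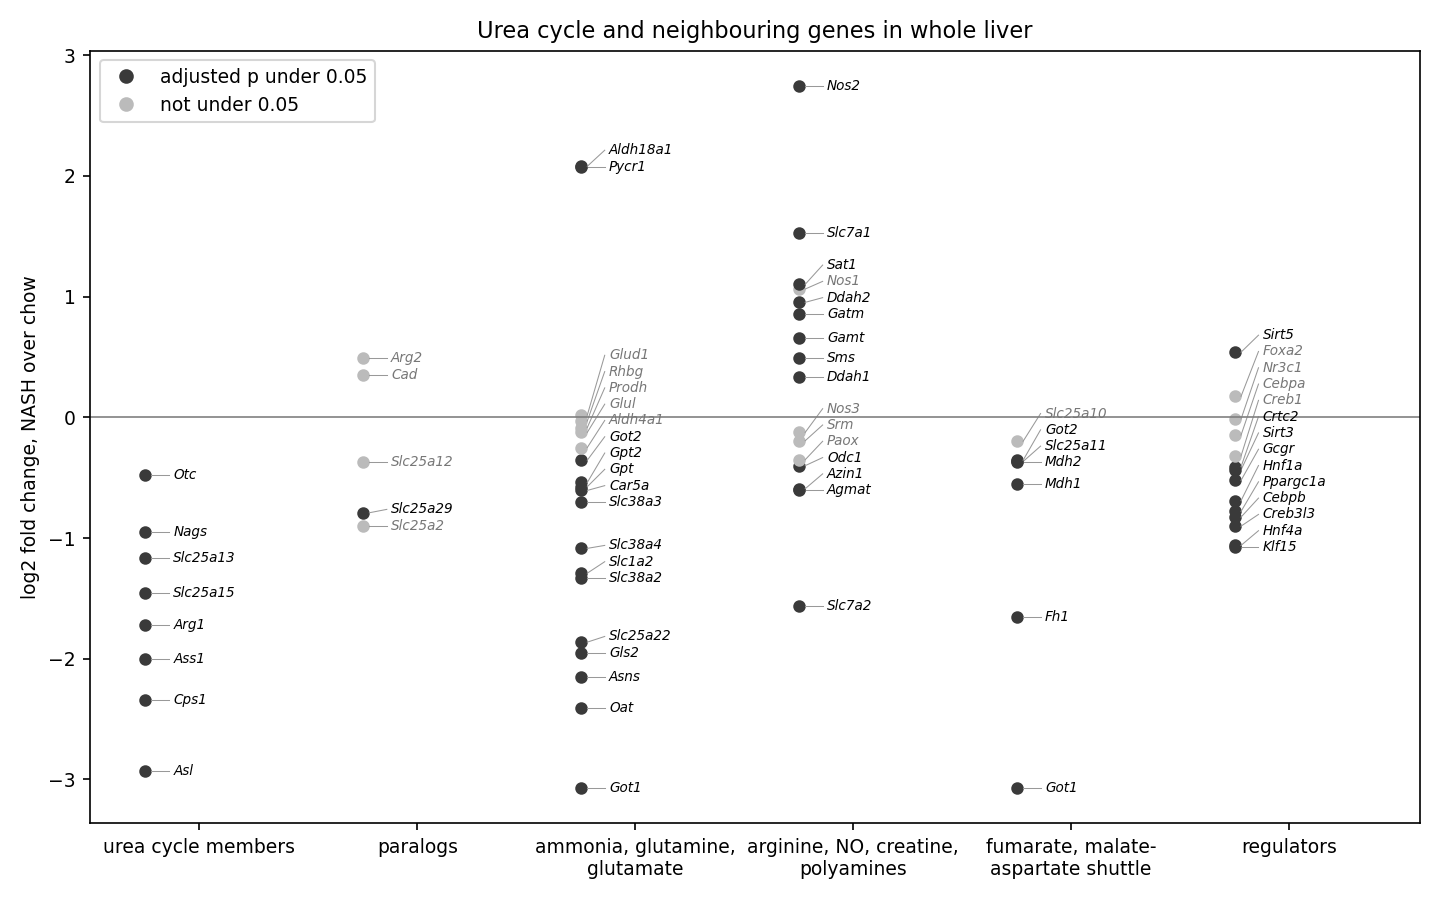
Log2 fold change of NASH over chow in whole liver (limma) for the 8 urea cycle genes, their paralogs and 4 lists of related genes, dark where the adjusted p was under 0.05 and grey otherwise; 1 listed gene is not drawn. The 8 members all lie below 0, whereas each other list but the shuttle genes has points on both sides.

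Of 14 regulators tied to urea cycle transcription or activity, 9 fell and 1 rose in liver, with a median of -0.48, against 21% and 25% of all genes (3 and 4, and -0.06, with scaling by total reads, against 5.41% and 47.2%). With the latter scaling the share that rose was below that of all genes. Hnf4a, for a hepatocyte nuclear receptor, went from 41785, 41956 and 50097 to 25437, 22100 and 17216 normalized reads (-1.06, limma adjusted p = 0.000414). Klf15, for a factor that acts on amino acid metabolism in fasting, fell by 1.07, and Creb3l3, for a membrane-bound hepatic factor, by 0.90 on the log2 scale. Sirt5, a mitochondrial deacylase gene whose protein acts on CPS1, was the gene that rose (0.54, named after its value was seen).

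Because the cycle is stronger near the portal vein, markers of both ends of the lobule were read beside the members. Of 10 periportal genes 6 fell and 1 rose (median -0.99), and of 12 pericentral genes 6 fell and 1 rose (median -0.63), against 21% and 25% of all genes, so genes of both ends fell. With scaling by total reads the counts were 5 and 2 (median -0.58) for periportal and 4 and 3 (median -0.21) for pericentral genes, against 5.41% and 47.2% of all genes, so the shares that rose were below that of all genes. The periportal genes with the smallest p were Pck1 (-2.09), Hal (-2.22) and Gls2, and the pericentral ones Cyp1a2 (-1.24), Slc1a2 and Oat. The 2 lists were not compared by a test.

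In LSEC 5 of 79 related genes rose and 3 fell, shares near those of all genes, of which 5.24% rose and 2.86% fell. Macrophage markers were also higher there, with 7 of 13 called and sums of 15037 to 42017 normalized reads on chow and 68717 to 86800 in NASH, none of them at 0. Of the other lists, 2 of 7 stellate cell, 1 of 7 cholangiocyte and none of 5 T and NK cell markers rose. The part of these cells in the changes below was not tested. Slc7a1 rose from 309, 194 and 268 to 701, 550 and 574 normalized reads (log2 fold change 1.26, limma adjusted p = 0.0196), and Odc1, for the first enzyme of polyamine synthesis, from 181, 468 and 356 to 1643, 1239 and 785 (1.91, limma adjusted p = 0.0347). Gpt2, a mitochondrial alanine aminotransferase gene, rose by 1.86, Aldh18a1 by 1.03 and Aldh1b1, on the periportal list, by 2.30 on the log2 scale. Slc25a12 fell by 0.49, Gatm, for the first step of creatine synthesis, by 0.79 and Ddah1, named after its value was seen, by 0.76, and with scaling by total reads, which moved the median of all LSEC genes to 0.14, these 3 did not pass. Leaving out 1 library ended these calls for 3 of the 6 libraries for Gpt2, 4 for Slc7a1 and Odc1, 5 for Aldh18a1, Aldh1b1 and Ddah1, and each of the 6 for Slc25a12 and Gatm. No gene of the shuttle, regulator or pericentral lists passed in LSEC.

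The liver genes whose pattern over the 6 libraries was most like the mean of the 8 members were Echs1 (Pearson r = 0.999), Gorasp2, Fam210b, Hpd and Eefsec, out of 12395 genes that averaged 50 or more normalized reads. Hpd, which encodes a tyrosine breakdown enzyme, had 209234, 198049 and 144906 normalized reads on chow and 68315, 60407 and 37911 in NASH. The 6 libraries form 2 groups that differ, and 9.27% of those genes had r over 0.95.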

How the data were processed

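Bulk RNA-seq of 12 libraries (3 each of chow liver, NASH liver, chow LSEC and NASH LSEC) was read from 1 deposited table per tissue. The submitters' processing notes list DESeq2, FastQC, HTSeq, STAR and Seurat and build mm10, without versions or settings. The deposited normalized signal is the read count of a gene divided by 1 factor per library, and division by the smallest value above 0 gave whole reads for 100% of values in every library (tolerance 0.01). Per the file headers, the authors' log2 fold changes, p-values and adjusted p-values stand beside it, and they are quoted only where the authors' deposited table is named. No 2 replicates were copies, since the chi-square per degree of freedom of recovered reads was 16.4 to 96.2. In the deposited files 22 gene names per tissue had been turned into dates; none is a member.

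Each tissue was tested with limma 3.58.1 (R 4.3.3), with a variance trend, on log2(normalized reads + 1), no filter, and Benjamini-Hochberg adjustment over all genes; calls are adjusted p under 0.05. This scale understates changes of genes with few reads. The difference between tissues used a t distribution with Satterthwaite degrees of freedom, adjusted over the genes in both tables. Ratios used exact two-sided permutation tests of mean log2 ratios, adjusted over the ratios compared. Alternatives were pseudocounts of 0.1 and 10, a mean of at least 10 normalized reads, scaling by total reads, edgeR 4.0.16 and DESeq2 1.42.0 on recovered reads, each library left out in turn, a replicate block and, chosen after seeing the data, scaling by the median hepatocyte marker. Scripts were tested on simulated data.

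Exon lengths, coordinates, transcripts and the Ass1 comparison come from GENCODE M21, and promoters from RefSeq (5 of 8 members matched by symbol). The members and gene lists were chosen with earlier results of these data known. Named are all members and paralogs, the 3 genes with the smallest limma p of each other list per tissue, and the 5 genes most like the members in liver; other names are marked as chosen after their values were seen. Of 18 genes on the arginine list, 16 were in the liver table and 17 in the LSEC table. The value of 1 gene counted in a list is not reported here.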

Additional observations from a re-analysis of the deposited data

Results flagged for a closer look

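For 5 members, Ass1 with a value that cannot be relied on, the NASH effect passed a test of the difference between the tissues. Each effect was lower in liver than in LSEC. On the log2 scale, liver minus LSEC was -3.20 for Asl, -1.80 for Slc25a15, -2.58 for Slc25a13, -2.05 for Nags and -2.73 for Ass1. Asl and Slc25a15 passed whichever library was left out (highest adjusted p from limma effects 0.00189 and 0.00667). Nags, Slc25a13 and Ass1 each lost the call without some library, with highest adjusted p of 0.116, 0.0889 and 0.109. The Ass1 value rests on 2 chow and 5 NASH reads in LSEC and on a fitted LSEC log2 fold change that ran from 0.11 to 2.38 with the pseudocount, so no difference is read from it. The 8 genes and the hepatocyte markers were highest in the same LSEC libraries, and the part of hepatocyte RNA in these differences was not tested.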

How the results depend on the processing

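In liver all 8 members kept their negative direction under every alternative run, and 8 were called lower except for 7 with scaling by total reads, with scaling by hepatocyte markers and without chow library 1, chow library 2 or NASH library 1, Otc being lost each time. With each liver library left out, 7 to 8 were called. Over 14324 liver genes, deviations from the group mean correlated at -0.014, -0.016 and 0.098 between chow and NASH libraries of equal number. For unequal numbers the correlations were -0.086 to 0.090. For the members, library 3 was the lowest in both diets. With a replicate block, 8 were again called lower and the limma adjusted p of Otc was 0.0118. The SE went from 0.289 to 0.117 for Asl and down for each other member but Nags, where it rose from 0.079 to 0.082. Beyond the correlations of deviations, whether equal numbers share an origin was not tested. No paired analysis was possible because the LSEC columns carry no replicate number. In LSEC no member was called under any alternative run. Scaling by hepatocyte markers, chosen after seeing the data, reversed the LSEC log2 fold changes of Nags (-0.74), Otc (-0.50), Ass1 (-1.12), Asl (-1.58), Arg1 (-0.33), Slc25a15 (-1.4998) and Slc25a13 (-0.43), with SE of 1.56 or more; Cps1 stayed positive at 0.32. With 1 LSEC library left out, the log2 fold change of Asl ranged from -0.0079 to 0.64. The number of members with a lower effect in liver than in LSEC, 5, ranged from 2 to 8 with 1 library left out, was 7 with a normal p, 4 with edgeR and 4 of the 7 members left by the filter. With scaling by total reads, related genes called in liver went from 40 lower and 14 higher to 19 and 24, and in LSEC the lower ones went from 3 to 0; the cause was not tested. The ratio to hepatocyte markers was negative in liver under each alternative (-1.44 to -0.98). Few reads limit Nags and Ass1 in LSEC and Ass1 in liver.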
